A study of Rattus norvegicus with 16 samples.

Results

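The apolipoproteins and the proteins that assemble very-low-density lipoprotein (VLDL) were followed as 10 listed genes: Apob, Mttp, Tm6sf2, Apoa2, Apoa4, Apoa5, Apoc1, Apoc2, Apoc3 and Apoe. The list was made by gene name, with earlier results of these data known, so counts over it are descriptions. Of the 10 names, 9 matched a gene symbol among the 22517 in the expression tables, and Apoc3 is not analysed here. VLDL is the particle in which the liver exports triglyceride to the blood, and it is built in the endoplasmic reticulum around apolipoprotein B, which stays with the particle until it is cleared. The microsomal triglyceride transfer protein loads lipid onto the growing apolipoprotein B chain, and the smaller, exchangeable apolipoproteins then govern how the particle's triglyceride is hydrolysed and how its remnant is taken up. Overproduction of VLDL by the liver is a known source of the high plasma triglyceride of obese, diabetic rodents.

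The animals were 8 male Zucker rats of the strain ZDF/GmiCrl-fa/fa, so every group carries the same leptin receptor defect and no lean group is compared. They arrived at 7 weeks of age and ate Purina 5008 chow. From 9 to 11 weeks of age, a feeding period of 2 weeks, 4 rats had R-α-lipoic acid, a cofactor of mitochondrial enzymes, in that chow (LA) and the other 4 were pair-fed the chow without it (PF). RNA sequencing of liver and of epididymal fat gave 4 libraries for each tissue and feed, 16 in all, and the labels do not say which liver and fat libraries share a rat. Values are in FPKM, which divide the fragments of a gene by its length and by the size of the library, so levels can be compared between genes as levels per length.

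Between 9522 and 9738 genes reached 1 FPKM in a liver library and between 11276 and 11480 in a fat library. The number of fragments sequenced is unknown. From the steps between low values, 1 fragment in the PF livers was worth 0.853 to 1 of that in PF liver replicate 1, in the LA livers 0.722 to 0.894, and in fat 0.739 to 0.961. Adipocyte markers summed to 37113 to 45249 FPKM in fat libraries and 61.2 to 75.5 in liver libraries. Of 22 hepatocyte markers, 19 were at 1 FPKM or more in the liver groups, while Alb, Tf and C3 were listed at 0 in every liver library. Alb read 51.2 to 581 FPKM in fat, so a listed 0 can be a failed estimate, and no such 0 occurred among the 9 genes described here.

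Together the 9 genes held 5.23% to 5.82% of all FPKM in PF liver, 4.09% to 5.03% in LA liver and at most 0.205% in fat. In PF liver Apoc1 (11580 ± 984 FPKM, SD, n = 4) and Apoe (10159 ± 1419) stood highest, and their libraries overlapped. Apoa2 (4945 ± 522) came next, above Apoc2 (2716 ± 137) and Apoa4 (2293 ± 286), which overlapped with each other. Apoa5 (341 ± 80.2) and Apob (246 ± 41.5) also overlapped, and Mttp (56.6 ± 4.14) and Tm6sf2 (31.2 ± 4.83) were lowest, each apart from its neighbour in the order. In LA liver Apoe (8424 ± 1228) and Apoc1 (7997 ± 1151) still overlapped at the top, and the order below them was the same. Apoa4 (1096 ± 82.4) no longer overlapped with Apoc2 (1934 ± 272) there. The plot of each gene by library shows this order, with liver above fat for every gene.

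**Figure D1:**
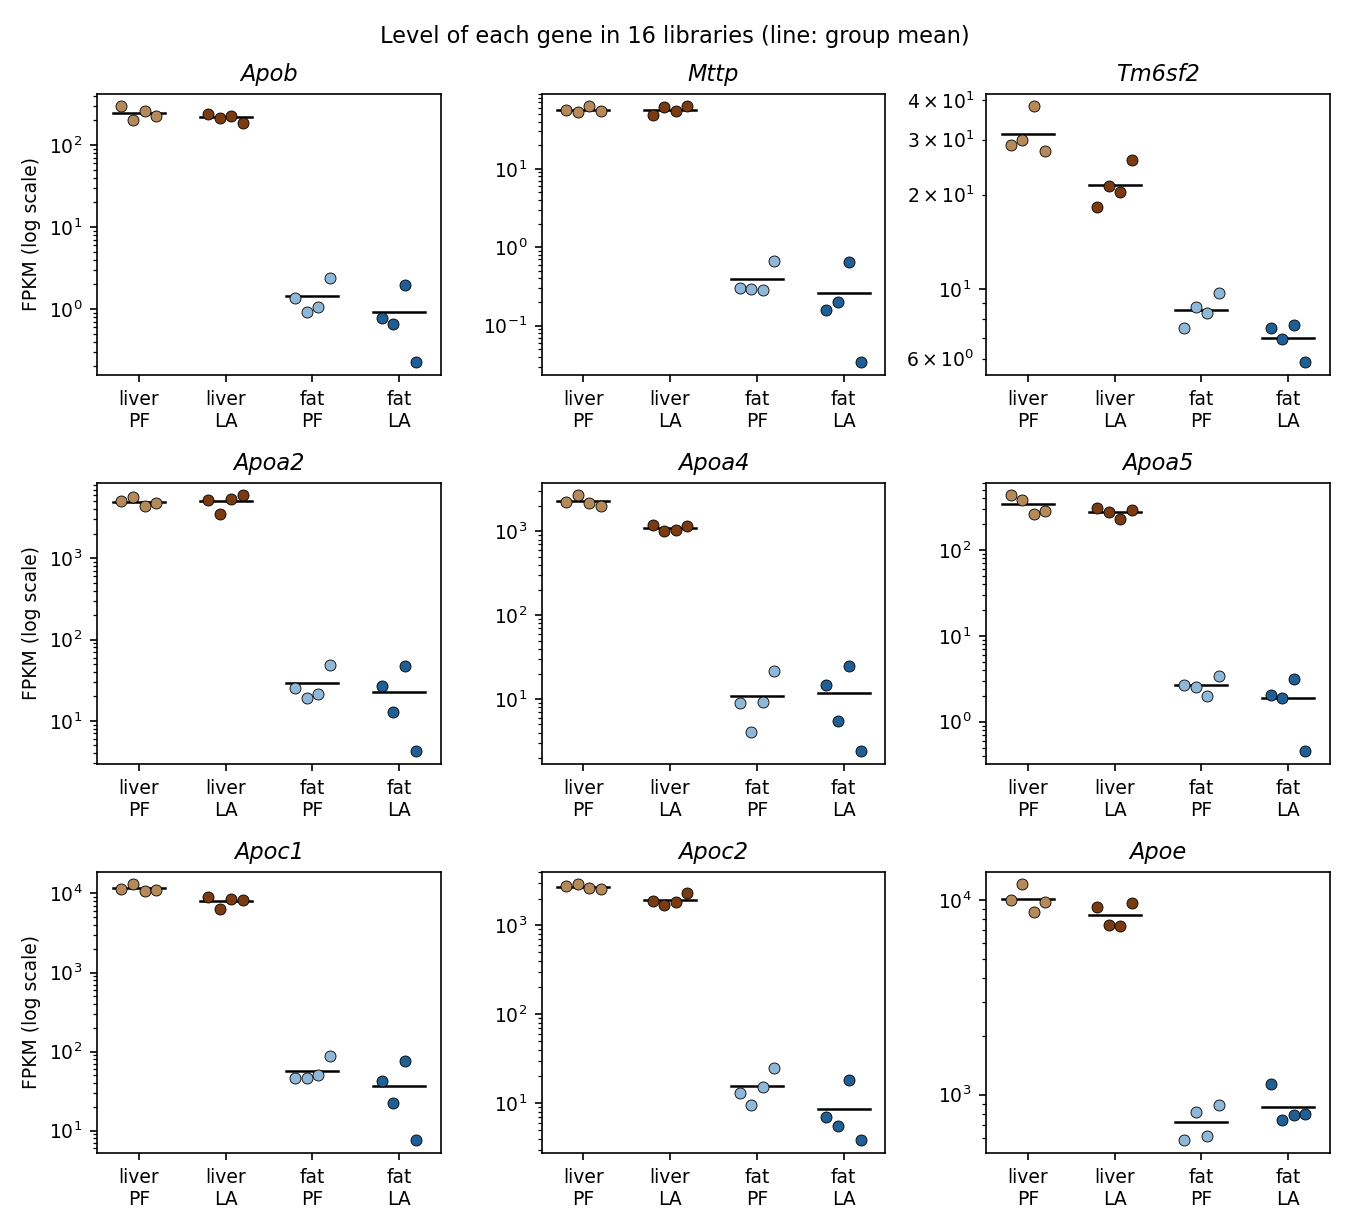
FPKM of the 9 genes (log scale, each panel with its own range) in PF and LA liver and in PF and LA fat. Points are libraries, 4 a group, and lines are group means. The LA liver libraries of Apoa4 (1003 to 1181 FPKM) lie below all PF liver libraries (2025.5 to 2698), and in fat the 7 liver-abundant genes spread from 6.51-fold (Apoc2) to 19.6-fold (Mttp), against 1.94-fold for Apoe and 1.66-fold for Tm6sf2.

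In liver, lipoic acid feeding went with lower Apoa4, Apoc2 and Tm6sf2. The calls of Apoc2 and Tm6sf2 were lost in 7 and 6 of the 8 fits that left out 1 library. The other genes, among them the lipid loading pair Apob and Mttp, the HDL gene Apoa2 and Apoc1, did not pass the test. By limma with Benjamini-Hochberg adjustment over 9710 genes, 3 of 9 genes were called lower at an adjusted p under 0.05 and 0 higher, where 2.21% of all genes tested were called lower and 2.27% higher. At an unadjusted p under 0.05, 4 of the 9 were lower and 0 higher, against 20.1% of all genes in either direction. The mean log2 value was lower under LA for 7 of the 9, against 50.6% of all genes, and 4 of the 9 had LA libraries wholly below the PF libraries, against 6.39% of all genes. The median log2 fold change was -0.28 over the 9 genes and -0.00 over all genes tested. Every fold change here is on the log2(FPKM + 1) scale, and gives LA against PF unless another contrast is named.

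Apob encodes the structural protein of VLDL. Its liver libraries read 298, 202, 257 and 227 FPKM under PF and 241, 216, 229 and 185 under LA. The groups overlapped, with the highest library under PF and the lowest under LA. The log2 fold change was -0.16 (95% interval -0.44 to 0.11) and the limma adjusted p was 0.52. Mttp, the transfer protein that lipidates Apob, read 56.1, 53.6, 62.6 and 54.0 FPKM under PF and 49.1, 61.4, 54.6 and 62.4 under LA. Its groups overlapped throughout, with a log2 fold change of 0.00 (95% interval -0.20 to 0.21) and a limma adjusted p of 0.99. The ratio of Apob to Mttp within a library was 4.34 ± 0.668 under PF and 3.90 ± 0.842 under LA (SD, n = 4 each), with a two-sided exact permutation p of 0.43.

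Tm6sf2 encodes a membrane protein of the endoplasmic reticulum and Golgi that helps to load VLDL with triglyceride. It read 28.9, 30.0, 38.3 and 27.7 FPKM in PF liver and 18.2, 21.4, 20.4 and 25.9 in LA liver. Every LA library was below every PF library, although LA replicate 4 at 25.9 FPKM came close to PF replicate 4 at 27.7. The gene fell by 0.52 on the log2 scale (SE 0.12, 1.43-fold lower), with a limma adjusted p of 0.0407. That call held without PF replicate 4 or without LA replicate 4 and was lost without any other single liver library, with adjusted p up to 0.102. With 1 library left out of each fit, Apoa4 alone among the 9 genes stayed called in all 8 liver fits.

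Among the exchangeable A apolipoproteins, Apoa4 had the largest difference. Apoa4 is made by intestine and, in rodents, liver, and rides on triglyceride-rich particles and HDL. Its liver libraries read 2249, 2698, 2199 and 2025.5 FPKM under PF and 1181, 1003, 1053 and 1147 under LA. The groups were far apart, with the highest LA library at 1181 and the lowest PF library at 2025.5. Apoa4 fell by 1.06 on the log2 scale (SE 0.11, 2.08-fold lower), with a limma adjusted p of 0.000701, the 21st smallest p of 9710 genes. In a model over all 16 libraries, where the wide spread of Apoa4 in fat enters the error, the limma adjusted p was 0.288.

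Apoa5, the neighbour of Apoa4 on chromosome 8 in the RefSeq GRCr8 annotation, promotes hydrolysis of plasma triglyceride by lipoprotein lipase. It read 434, 381, 263 and 287 FPKM in PF liver and 306, 277, 232 and 295 in LA liver. The groups overlapped, although PF replicates 1 and 2 lay above all LA libraries. The log2 fold change was -0.28 (SE 0.16), and the limma adjusted p was 0.37. Within each liver library the ratio of Apoa4 to Apoa5 was 5.18, 7.08, 8.36 and 7.05 under PF and 3.86, 3.62, 4.53 and 3.89 under LA. All LA ratios were below all PF ratios, which gives the smallest two-sided exact permutation p that 4 against 4 allows, 0.0286, and 0.114 after Benjamini-Hochberg adjustment over the 4 ratio tests. Apoa2, a main protein of HDL, read 5018, 5629.7, 4399.6 and 4734 FPKM under PF and 5275, 3481, 5398 and 5948 under LA. LA replicate 2 was the lowest library and LA replicate 4 the highest, so the groups overlapped (log2 fold change 0.00, 95% interval -0.37 to 0.38, limma adjusted p 1.00).

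Apoc2, Apoc4, Apoc1 and Apoe lie side by side in that order on chromosome 1 in that annotation. Apoc2, the cofactor that lipoprotein lipase needs, read 2752, 2890.05, 2649 and 2572 FPKM in PF liver and 1884, 1710.4, 1812 and 2328 in LA liver. All LA libraries were below all PF libraries, with LA replicate 4 the nearest to them. Apoc2 fell by 0.50 on the log2 scale (SE 0.11, 1.41-fold lower), with a limma adjusted p of 0.0327. Its call held only without LA replicate 4 among the fits that left out 1 library, with adjusted p up to 0.0943 in the others. Apoc1, which hinders lipolysis and receptor uptake of remnants, read 11335, 13026, 10856 and 11102 FPKM under PF and 8975, 6333, 8426 and 8253 under LA. Its groups did not overlap either, but the adjusted p was 0.0564 by limma for a log2 fold change of -0.54 (SE 0.14), and Apoc1 did not pass. Apoe, the ligand through which liver receptors clear remnants, read 10083, 12079, 8668 and 9804 FPKM under PF and 9214, 7418, 7335 and 9729 under LA. These overlapped, with a log2 fold change of -0.27 (SE 0.15) and a limma adjusted p of 0.35.

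Most hepatocyte markers moved with these genes. Of 19 tested, 17 had a lower mean log2 value under LA (50.6% of all genes) and 4 were called lower (Fga, Fgg, Ambp and Vtn, against 2.21% of all genes), with a median log2 fold change of -0.33, and their summed FPKM ran from 68223 to 83194 across the PF livers and from 55236 to 66047 across the LA livers. Macrophage markers moved the other way, with 12 of 13 higher in mean, 3 called higher (2.27% of all genes), and sums of 269 to 311 FPKM across the PF livers and 351 to 523 across the LA livers. The 2 hepatocyte markers with a higher mean under LA were Cyp2e1 and Rbp4. Cyp2e1 read 1324 to 1936 FPKM under PF and 1761 to 2766 under LA, and Rbp4 4973 to 5684 and 5448 to 6485. In bulk tissue, fewer hepatocytes and less RNA of the marker genes per hepatocyte cannot be told apart. The part of the hepatocyte and macrophage markers in the lower apolipoprotein levels was not tested. Centring each liver library on its hepatocyte markers raised every log2 fold change by 0.28. Apoa4 was then still lower, by 0.78 (limma adjusted p 0.000132). Apoc2 (-0.22, adjusted p 0.0764) and Tm6sf2 (-0.24, adjusted p 0.146) no longer passed limma's threshold, Apoc1 stood at -0.26, and Apob (0.11), Apoa5 (0.00467) and Apoe (0.00855) turned above 0. The plot of liver differences shows both scales.

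**Figure D2:**
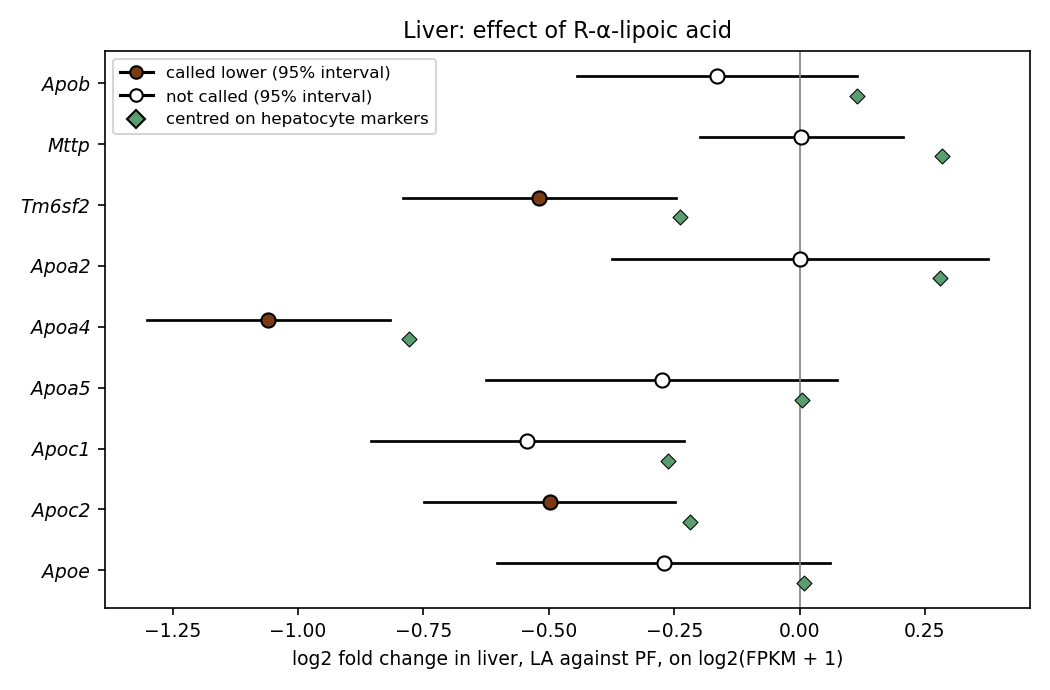
Log2 fold change of the 9 genes in liver, LA against PF, on log2(FPKM + 1), as circles with 95% intervals over 4 libraries a group, filled where the limma adjusted p was under 0.05. Diamonds give the same value after each library was centred on hepatocyte markers, where Apoa4 stays at -0.78 and Apoc2, Tm6sf2 and Apoc1 move to between -0.26 and -0.22.

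The sequences just before the start sites of the 3 genes called lower are shown because these genes moved in the same direction. They are the 250 bases upstream of each RefSeq start in GRCr8, read 5′ to 3′ along the gene's strand, with matches in capitals. Entries were matched for 6 of the 9 genes: Apoa4, Apoa5, Apoc1, Apoc2, Apoe and Tm6sf2. The Apoa4 stretch is chr8:55435529-55435778 on the plus strand, the Apoc2 stretch chr1:88462366-88462615 on the minus strand, and the Tm6sf2 stretch chr16:19385361-19385610 on the minus strand.
Apoa4: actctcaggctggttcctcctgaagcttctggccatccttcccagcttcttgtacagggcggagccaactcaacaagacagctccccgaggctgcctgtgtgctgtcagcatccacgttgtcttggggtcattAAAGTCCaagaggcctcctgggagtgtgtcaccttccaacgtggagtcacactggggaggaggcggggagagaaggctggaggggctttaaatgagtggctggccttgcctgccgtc
Apoc2: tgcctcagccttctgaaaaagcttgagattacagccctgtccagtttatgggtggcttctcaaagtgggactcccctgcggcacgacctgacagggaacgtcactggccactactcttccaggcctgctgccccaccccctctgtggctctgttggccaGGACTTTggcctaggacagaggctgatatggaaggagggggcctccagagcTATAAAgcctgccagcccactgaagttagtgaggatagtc
Tm6sf2: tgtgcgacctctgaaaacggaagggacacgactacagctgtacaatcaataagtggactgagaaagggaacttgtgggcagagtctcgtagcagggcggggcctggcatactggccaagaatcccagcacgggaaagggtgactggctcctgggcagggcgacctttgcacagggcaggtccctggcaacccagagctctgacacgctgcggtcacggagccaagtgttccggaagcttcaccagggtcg
Capitals mark AAAGTCC, the core preferred by hepatocyte nuclear factor 4, a factor of liver apolipoprotein genes, and the TATA box TATAAA. In Apoa4 the AAAGTCC match lies at -117 to -111 from the start, and in Apoc2 it lies on the opposite strand at -91 to -85, with the TATA box at -40 to -35. The Tm6sf2 window holds no match to any motif searched.

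Both strands were searched for 6 motifs, and AAAGTCC was added to the search after these sequences had been read. The 6 genes have 10 windows, since Apoa5, Apoc1 and Apoe have more than 1 start and their windows can overlap, and shares are given by window. AAAGTCC was present in 2 of the 10 windows, those of Apoa4 and Apoc2, and in 3.99% of 33469 rat windows of the same length. TATAAA was in 3 of 10 (12.9% of all windows) and CCAAT in 2 of 10 (34.0%). The nuclear receptor motif AGGTCA was in 1 of 10 (14.1%) and the E-box CACGTG in 2 of 10 (5.59%), all in Apoa5. GTTAAT, a motif of hepatocyte nuclear factor 1, was in 3 of 10 (6.45%), in Apoa5 and Apoc1. Overlapping windows counted the same site more than once for CACGTG and TATAAA in Apoa5 and for GTTAAT in Apoc1. By gene, CACGTG was in 1 of 6, TATAAA in 2 of 6 and GTTAAT in 2 of 6. These motifs do not overlap one another where they matched, and each match is a description of letters. Hnf4a itself, the gene of the factor that binds AAAGTCC, had a liver log2 fold change of -0.14 (limma adjusted p 0.63).

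Around these genes, 5 lists of the wider pathway held 6 genes called lower in liver and 0 called higher, out of 83 tested, where 2.21% of all genes were called lower and 2.27% higher. A further list, of plasma triglyceride lipolysis, is outside these counts, with 1 of 8 genes tested called lower and 0 higher. In the other apolipoproteins and HDL factors, 1 of 12 was called. That gene, Apom, carries sphingosine phosphate on HDL. It read 323, 455, 414 and 370 FPKM under PF and 202, 208, 211 and 281 under LA, with every LA library below every PF library. Apom fell by 0.79 (SE 0.13, limma adjusted p 0.00837) and stayed called in all 8 fits without 1 library, though not with all 16 libraries in one model (adjusted p 0.167). The 12 had a median of -0.22, and Apoc4, between Apoc2 and Apoc1, stood at 761 ± 67.6 and 600 ± 110 FPKM with a limma adjusted p of 0.16.

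Editing of Apob mRNA by Apobec1 makes the short apolipoprotein B, which rodent liver secretes beside the full-length form. Apobec1 read 7.02, 6.12, 6.51 and 9.08 FPKM in PF liver and 4.54, 3.75, 4.54 and 4.35 in LA liver. The groups did not overlap, and Apobec1 fell by 0.62 (SE 0.11, limma adjusted p 0.0135). It was called in all 8 fits that left out 1 library, with adjusted p of 0.0169 to 0.0485, and it was 1 of 5 editing genes called. Its cofactor A1cf had a log2 fold change of -0.06 (limma adjusted p 0.92). After centring on hepatocyte markers Apobec1 stood at -0.34, with a limma adjusted p of 0.0888. In fat Apobec1 was higher under LA in the mean, by 0.21 (limma adjusted p 1.00), and the difference between its diet effects in the tissues, liver minus fat, was -0.83 (limma adjusted p 0.0875).

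For the lipid that fills VLDL, 2 of 25 genes of lipidation and export were called, and the median of the 25 was -0.04. Dgat2, which completes triglyceride synthesis, read 311 ± 43.3 FPKM under PF and 206 ± 27.6 under LA (SD, n = 4) and fell by 0.59 (limma adjusted p 0.0233). That call was lost without the filter on low values (adjusted p 0.0537 by limma) and on leaving out PF replicate 3, PF replicate 4, LA replicate 1 or LA replicate 2 (limma adjusted p up to 0.0698). Aadac, a lipase that mobilises stored triglyceride, read 63.7 ± 4.16 and 44.5 ± 0.520 FPKM and fell by 0.50 (limma adjusted p 0.00296), in all 8 fits without 1 library. Both calls ended when libraries were centred on hepatocyte markers, with limma adjusted p of 0.0979 for Dgat2 and 0.0820 for Aadac, and that of Aadac also with all 16 libraries in one model (adjusted p 0.0620).

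In the lists of receptors and of transcription factors, 1 gene each was called. Hepatic lipase, Lipc, belongs to the list of plasma triglyceride lipolysis and had a log2 fold change of -0.47. Its groups did not overlap, and its adjusted p was 0.0568 by limma. Stab2, a scavenger receptor of liver sinusoidal endothelium, was 1 of 12 receptor genes and fell by 0.50 (limma adjusted p 0.0167), but lost its call on leaving out PF replicate 1 or LA replicate 2 (limma adjusted p up to 0.0571) and under hepatocyte centring (-0.22, adjusted p 0.164). Among 29 transcription factors Nr1d1, a clock repressor, fell by 0.71 (limma adjusted p 0.00609), while Ppara (-0.02) and Creb3l3 (0.15), which activate lipid and apolipoprotein genes in liver, had adjusted p of 0.94 and 0.60 by limma. The plot of liver differences by list places these genes.

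**Figure D3:**
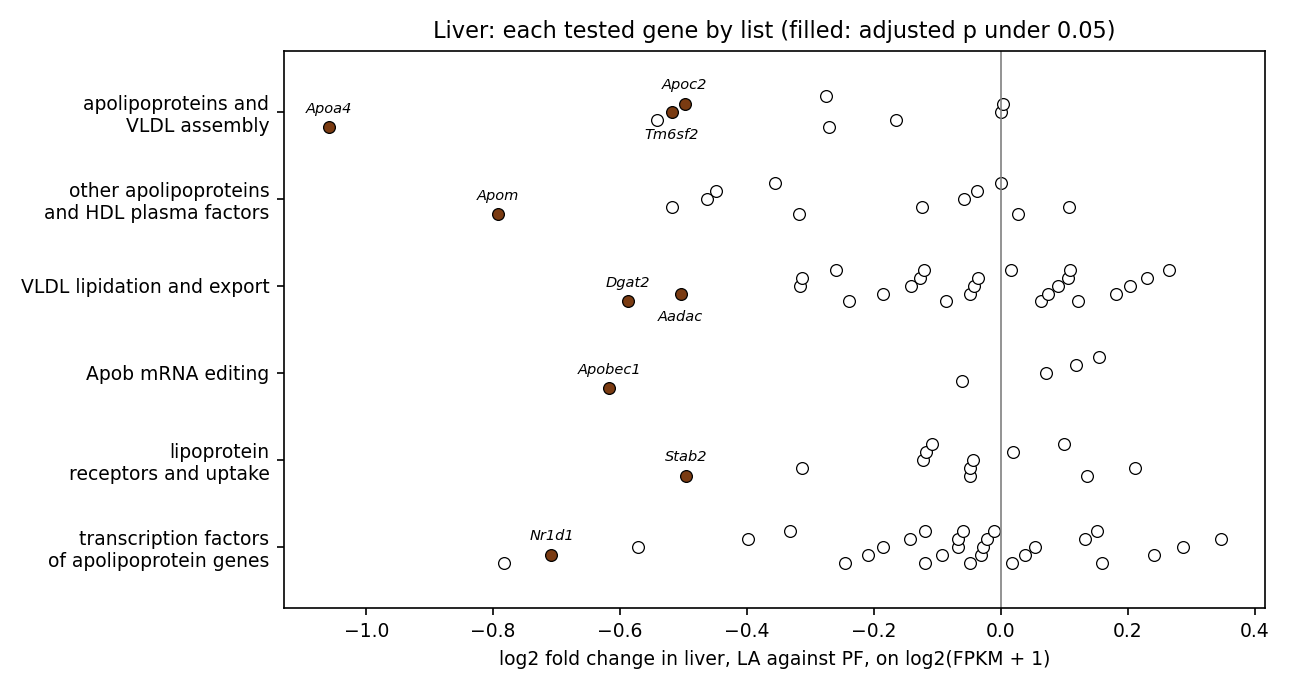
Log2 fold change in liver, LA against PF, on log2(FPKM + 1), for each tested gene of 6 lists, filled and named where the limma adjusted p was under 0.05. Points are spread vertically only to separate them. All 9 filled genes lie below 0, with Apoa4 at -1.06 farthest, and genes on both sides of 0 are open in every list.

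Fat held far less of all 9 genes. By limma each was higher in liver, 9 of 9 under PF, where 11.1% of 11492 genes were called higher in liver, and 9 of 9 under LA, where 10.5% of 11568 were. A call between tissues also required a log2 fold change over 1. Mttp was below 1 FPKM in all 8 fat libraries, and fewer than 4 fat libraries reached 1 FPKM for Apob under either feed and for Apoa5 under LA. These genes entered the fit through liver alone, so their calls were partly set by the filter and the counts of 9 are a description. Under PF the log2 fold changes of liver against fat were 7.77 for Apoa4, 7.68 for Apoc1, 7.46 for Apoa2, 7.43 for Apoc2, 6.69 for Apob, 6.53 for Apoa5 and 5.38 for Mttp. Apoe (3.82) and Tm6sf2 (1.74) differed least, and they were also least different under LA (3.29 and 1.49). Under LA Apoa2 (8.13) and Apoc1 (8.11) differed most, and Apoa4 stood at 6.82. The largest of these limma adjusted p was 6.99e-07, and no liver library of any of the 9 genes overlapped with a fat library of the same feed, where liver was wholly higher for 17.3% of all genes under PF and 16.6% under LA. The median gene was lower in liver by 0.66 under PF and 0.65 under LA. Centring on it moved the calls from 1273 higher and 4174 lower to 2064 and 2253 under PF, and from 1211 and 4161 to 1985 and 2292 under LA, with all 9 genes still called higher.

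What fat does express of this set was set against liver RNA in the fat libraries. For each fat library the level of 19 hepatocyte markers (those at 100 FPKM or more in PF liver) was taken as a percentage of their PF liver mean. The median was 0.528%, 0.399%, 0.488% and 0.883% in the PF fat libraries and 0.365%, 0.278%, 0.786% and 0.0929% in the LA fat libraries. PF replicate 4 and LA replicate 3 stood highest and LA replicate 4 lowest, a 9.51-fold spread.

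Apob in fat read 1.36, 0.912, 1.06 and 2.38 FPKM under PF and 0.785, 0.652, 1.97 and 0.223 under LA, that is 0.0909% to 0.970% of its PF liver mean. These percentages were 0.874 to 1.10 times the marker median, and Apob ranked the 8 libraries exactly as the markers did. Mttp, at 0.0341 to 0.670 FPKM, was 0.650 to 1.45 times the marker median, and Apoa2, at 4.22 to 49.1 FPKM, was 0.980 times at the median library. Apoc1 (7.56 to 88.0 FPKM) was 0.690 to 1.02 times, Apoc2 (3.83 to 24.9 FPKM) 0.702 to 1.52 times and Apoa4 (2.39 to 24.8 FPKM) 0.445 to 1.74 times. These 6 genes and Apoa5 were lowest in LA replicate 4, and all of them but Apoa4 were highest in PF replicate 4, the libraries at the ends of the marker range. Apoa5, at 0.452 to 3.37 FPKM, stood above the marker median in all 8 libraries, at 1.12 to 1.99 times. Of the single markers, Vtn and Rbp4 exceeded it throughout, and Rbp4 is one that fat also makes. Set against LA liver in place of PF liver, Apoa4 in the 4 LA fat libraries was 3.00, 1.41, 2.27 and 2.07 times the marker median, Apob 0.813 to 0.974 times and Apoa5 1.14 to 1.92 times. Apoa4 thus lay above the marker median in LA fat on that scale. Whether liver RNA accounts for these fat values was not tested.

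Apoe, which adipocytes and macrophages make, did not follow the markers. It read 582, 814, 611 and 881 FPKM in PF fat and 1132, 738, 787 and 799 in LA fat, or 5.73% to 11.1% of its PF liver mean. That is 9.81 to 84.7 times the marker median, with its rank equal to theirs in 0 of 8 libraries and a 1.94-fold spread. Tm6sf2 read 7.49, 8.75, 8.39 and 9.70 FPKM in PF fat and 7.51, 6.95, 7.66 and 5.83 in LA fat. At 18.7% to 31.1% of its PF liver mean it was 31.2 to 201 times the marker median, with a 1.66-fold spread, although its highest and lowest libraries were those of the markers. Subtracting the marker share of the PF liver mean left 529 to 1095 FPKM of Apoe and 5.80 to 9.42 FPKM of Tm6sf2 in the 8 fat libraries. It left 0.135 to 1.21 FPKM of Apoa5 in all 8, and values on both sides of 0 for the other 6 genes. The PF liver mean was subtracted in LA fat too. Against LA liver, Apoa4 in LA fat stood at 1.41 to 3.00 times the marker median. Among the markers Rbp4, which fat also makes, stood at 17.3% to 35.8% of liver. In the RefSeq annotation Tm6sf2 lies beside Sugp1, which fat holds at 12.5 ± 1.16 FPKM under PF and liver at 6.60 ± 0.416, and the kit does not mark strand. Hapln4, on its other side, was at 0.392 ± 0.199 FPKM in PF fat. Whether reads of a neighbour enter the Tm6sf2 value was not tested. No gene overlaps any of the 9 in that annotation.

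**Figure D4:**
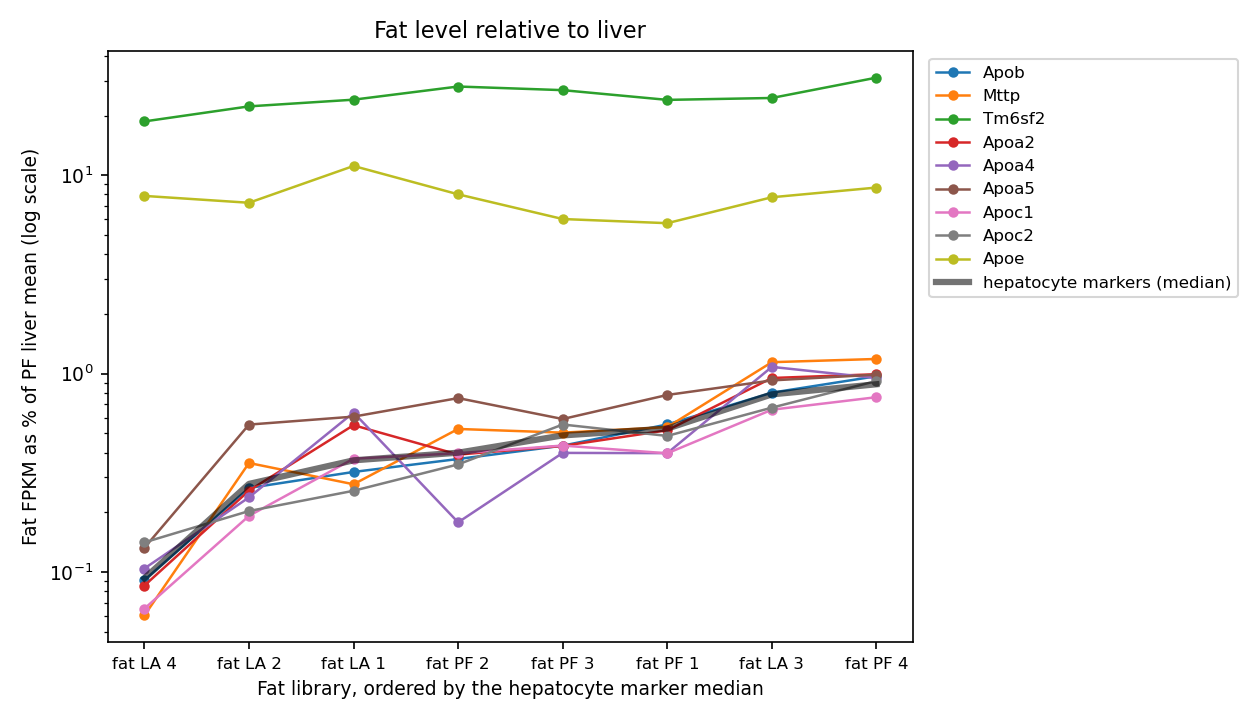
FPKM of the 9 genes in each of the 8 fat libraries as a percentage of the PF liver mean (log scale), with libraries ordered by the median of 19 hepatocyte markers (thick line, 0.0929% to 0.883%). Apob runs along the marker line, the other liver-abundant genes lie near it, and Apoe (5.73% to 11.1%) and Tm6sf2 (18.7% to 31.1%) lie well above it.

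Between the feeds, fat showed 0 of 8 tested genes called by limma, where 0.0174% of 11501 genes were called (2 genes), and Mttp was below the filter of 1 FPKM in 4 libraries. At an unadjusted p under 0.05 only Tm6sf2 was lower, 1 of 8, against 3.92% of all genes. The groups overlapped for all 8 genes, where 2.08% of all genes did not overlap, and the mean log2 value was lower for 7 of the 8, against 44.7% of all genes. Apoa4 was among the 7 although its mean FPKM was 11.0 under PF and 11.8 under LA. Tm6sf2 stood at -0.26 (95% interval -0.51 to -0.02, unadjusted p 0.0383, limma adjusted p 1.00), and Apoe at 0.26 (95% interval -0.15 to 0.67). The liver-abundant genes ranged from -0.97 for Apoc1 to -0.11 for Apoa4, and all 21 hepatocyte markers tested in fat had a lower mean log2 value under LA, with a median of -0.70. The Apoa4 value in fat turned to 0.40 without LA replicate 4. Lipoprotein lipase, Lpl, the fat enzyme that hydrolyses VLDL triglyceride with Apoc2 as cofactor, read 3342 ± 723 FPKM in PF fat and 2228 ± 304 in LA fat, with groups that did not overlap, a log2 fold change of -0.57 and a limma adjusted p of 1.00.

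The difference between the diet effects in liver and in fat was tested over 16 libraries. By limma 0 of 9 genes were called, where 0.381% of 12079 genes were. Mttp entered this fit through liver alone. Apoa4 had the largest difference, liver minus fat, at -0.95 (95% interval -2.42 to 0.51, limma adjusted p 0.84), Apoa2 followed at 0.66 (adjusted p 0.92), and Apoe stood at -0.53 (95% interval -1.07 to 0.00, unadjusted p 0.0513, limma adjusted p 0.61). Tm6sf2, lower in mean in both tissues, differed by -0.26 (limma adjusted p 0.81). The fall of Apoa4 in liver is therefore not shown to differ from its change in fat, where its libraries ranged 10.4-fold. The ratio of Apoa4 to Apoa5 in fat was 4.00 ± 2.04 under PF and 5.77 ± 2.20 under LA (SD, n = 4 each), with a two-sided exact permutation p of 0.31 and 0.54 adjusted over the 4 ratio tests.

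Across the 8 liver libraries, with each feed's mean removed, the genes most like Apoa4 were Cd302 (Pearson r 0.98), Ap2s1 (0.97) and Cyp2d1 (0.97). The search covered 3638 genes with a mean of at least 10 FPKM, and left out symbols starting with LOC or RGD. Among its own set Apoa4 varied most closely with Apoe (0.81) and Apoc1 (0.75) and oppositely to Apob and Mttp (-0.34 each). Apob varied with Klhdc10 (0.98), Chfr (0.98) and Atrn (0.95) and had negative r with Apoe (-0.50) and Apoc2 (-0.48). In the 8 fat libraries Apoe varied most like Gbp2 (0.98), Tspo (0.98) and Dyt1 (0.96) among 4916 genes kept by the same rule. The fat library with the most Apoe, LA replicate 1, also had the highest sum of macrophage markers, 3965 FPKM against 1721 to 2685 in the other 7, and their part in the Apoe value was not tested. These r are descriptions over 8 libraries that share their scaling, and the best of 3638 or 4916 genes is high by selection.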

How the data were processed

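RNA was taken from liver and epididymal fat with TRIzol and RNeasy columns and made into libraries with the unstranded TruSeq V2 kit, per the labels' protocols. The submitters' processing notes name CASAVA 1.8.2, TopHat 0.12.8 and Cuffdiff, and the sources used here give no build, annotation or settings. Per the file headers, the authors deposited FPKM, 1 value for each gene symbol in each library. No counts were used, depth is unknown, and FPKM are shares, so abundant genes move the others. Whether the biological replicates of the labels were also extracted apart is not stated.

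The test was limma 3.58.1 (R 4.3.3, trend option) on log2(FPKM + 1), fitted to each tissue apart. A gene entered when 4 or more of the fitted libraries reached 1 FPKM, and p-values were adjusted by Benjamini-Hochberg over all genes entered. An adjusted p under 0.05 was a call, to which the tissue comparisons added a log2 fold change over 1. This scale understates changes of low genes. Ratios used all 70 arrangements of 4 against 4 libraries. Libraries of a rat could not be linked, so fits across tissues treated libraries as independent. The text names all matched members, a preset of pathway genes (some of them not reported here), up to 4 called genes of each list, and the 3 genes most like Apoa4, Apob and Apoe. A1cf, Apoc4, Cyp2e1, Rbp4, Sugp1 and Hapln4 were named after their values were seen. The members and lists were chosen with earlier results of these data known, so no pattern here is independent support. Alternatives changed the pseudocount (0.1), the filter (none), the threshold (adjusted p under 0.1), the centring (median or hepatocyte markers) and the samples (each replicate dropped in turn, or one model over 16 libraries). A replicate block and subtraction of the liver share from fat were also tried. The fits were tested on simulated data. Within groups, log2 values correlated at 0.971 to 0.994 across genes, and 0 pairs of libraries were identical. For the lists beyond the members, symbols found 182 genes, older names 12 more, and 12 found no match. Sequences and gene order are RefSeq's for GRCr8. Tables and figures were made with Python 3.11.15, pandas 2.3.3, numpy 2.4.6 and matplotlib 3.10.9.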

Additional observations from a re-analysis of the deposited data

Results flagged for a closer look

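Of 36 groups of 4 libraries tested over the 9 genes, 3 held a library that stood apart from the other 3 by Dixon's test, where chance gives about 1 in 20 groups. Mttp in PF fat read 0.670 FPKM in replicate 4 and 0.285 to 0.304 in the others. Apoc1 in PF fat read 88.0 FPKM in the same replicate and 45.9 to 50.2 in the others. That library also had the highest median of hepatocyte markers, 0.883% of PF liver. Apoe in LA fat read 1132 FPKM in replicate 1 and 738 to 799 in the others.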

How the results depend on the processing

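The call of Apoa4 in liver held under every alternative run except the model over all 16 libraries. The count of 3 genes of the set called in liver became 1 without the filter, 1 with the replicate block (Apoa4 in both), 1 with hepatocyte centring (Apoa4) and 1 with all 16 libraries in one model (Tm6sf2). Leaving out a library gave 1 to 3 of the set and 208 to 404 genes in all, the lowest without LA replicate 2 and 267 without PF replicate 1, against 435. Hepatocyte centring gave 3162 genes (3091 higher and 71 lower, against 220 and 215), since it raises every gene, and an adjusted p under 0.1 gave 848. Under hepatocyte centring Apob (0.11), Apoa5 (0.00467) and Apoe (0.00855) changed sign, and under median centring Mttp (-0.00615) and Apoa2 (-0.00918). In fat the 2 genes called became 1 with a pseudocount of 0.1, 1 with the replicate block, 7 with all 16 libraries in one model and 0 to 2 without a library. The 46 genes whose diet effects differed between tissues became 22 without the filter, 94 at an adjusted p under 0.1 and 19 to 60 without a library. The ratio of Apob to Mttp in fat turned to -0.23 on the log2 scale with a pseudocount of 1. The ratio of Apoa4 to Apoa5 in liver kept a log2 difference of -0.78 with the replicate block, with an exact p of 0.125, the smallest that fit allows. It was -0.92 to -0.69 without a library, with an exact p of 0.0571 without any of the LA replicates. Without a library, values crossed 0 for liver Mttp (-0.0427 to 0.0712), liver Apoa2 (-0.0899 to 0.168), fat Apoa4 (-0.58 to 0.40) and the tissue differences of Apoa5 (-0.15 to 0.35) and Apoc1 (-0.15 to 0.91). The cause of these changes was not tested. Whether replicate numbers pair the libraries is not settled by these values. Deviations of PF and LA libraries of the same number correlated at 0.15, 0.03, 0.08 and 0.00 in liver. In fat they correlated at -0.06, -0.27, -0.37 and -0.43. Liver and fat libraries of the same number correlated at 0.07, 0.30, 0.12 and -0.03 under PF. Under LA these values were -0.14, 0.12, 0.10 and -0.23. For a liver library, the fat library of the same number was the best match in 3 of 4 under PF and 2 of 4 under LA. Mttp could not be fitted in fat, nor Apob in 4 of its fits without a library, because they fell below the filter. A ratio of Apoc2 to Apoc3 was not run.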

Other observations

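The 6 exchangeable apolipoproteins described here (Apoa2, Apoa4, Apoa5, Apoc1, Apoc2 and Apoe) had sums between 29034 and 36704 FPKM among the PF livers and between 20223 and 27700.1 among the LA livers. Per FPKM of Apob this was 107, 182, 113 and 135 in the PF livers and 111, 93.7, 106 and 149.5 in the LA livers, ranges that overlap.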
